A study of Mus musculus with 8 samples.

Results

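The experiment described here is the response of livers with intact Glul, the gene for glutamine synthetase, to an acute toxic and inflammatory injury. Mice carrying loxP-flanked Glul alleles (labelled Glulflox/flox, with no Cre named) received lipopolysaccharide (LPS) at 1 mg/kg with D-galactosamine (D-GalN) at 200 mg/kg, or H2O, in each case by injection into the peritoneum. Whole-liver RNA was sequenced from 2 injured and 2 H2O-treated floxed livers. The members are all genes with at least 1 FPKM (read pairs on a gene divided by its length in kilobases and by the size of the library) in at least 2 of these 4 libraries, which gave 12438 of the 55416 genes in the table. The gene nearest the threshold from above was Naip6, whose second-highest value was 1.0001 FPKM, and the nearest from below was the predicted gene Gm10268 at 0.99959 FPKM. The study also holds 4 libraries of GlulΔlyz2 mice (KO), which lack Glul in cells that express Cre from the Lyz2 locus, mainly myeloid cells, again 2 after LPS/D-GalN and 2 after H2O. They enter here only through the shared estimate of the spread and through a test of whether the response differs between genotypes. No label gives the sex or age of the mice, the time from injection to collection, or whether replicate libraries stem from different mice. The p-values therefore reflect the spread among these libraries, which may be technical.

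D-GalN is taken up and metabolised by hepatocytes through the galactose pathway, where it traps uridine nucleotides and so limits RNA and protein synthesis in these cells. LPS is sensed by Toll-like receptor 4, above all on macrophages, which then release tumour necrosis factor (TNF). Hepatocytes normally survive TNF because it also switches on protective genes through NF-kB, and D-GalN makes them die of it. The liver answers inflammation with the acute-phase response, in which hepatocytes secrete defence, transport and clotting proteins under the control of interleukin-6, STAT3, NF-kB and C/EBP factors.

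The 4 libraries held between 19516452 and 23578666 assigned fragments, as recovered from the FPKM values, and a single fragment in a gene of 1 kb corresponded to between 0.0424 and 0.0512 FPKM. On log2(FPKM + 1) values of the members, Pearson's r was 0.983 between the H2O libraries and 0.985 between the injured ones, against 0.761 to 0.798 between libraries of different groups (across genes, which are not independent replicates). Of the 12438 members, 2443 were higher and 5068 lower after injury at an adjusted p under 0.05. Among all 13708 genes tested, 57.3% passed in either direction, 18.5% higher and 38.8% lower. The 2 groups did not overlap in 10540 members, where 83.0% of all tested genes showed no overlap. Rises and falls of at least 2 on the log2 scale numbered 328 and 607, and those of at least 4 numbered 42 and 41. The 486 members that reached 1 FPKM in both injured and in neither H2O library, and the 1781 with the opposite pattern, could hardly pass the filter without differing, and their calls are no support for a direction. These members include genes named below and genes in the counts of gene groups, also where this limit is not repeated. The median member lay at -0.30, and small changes can switch direction with the scaling. After median centring 3518 members rose and 3699 fell, so that 48.8% of the changed members rose, compared with 32.5% as deposited. Changes below are given as deposited, and a count after median centring follows where it shifts the split of a gene group by over 10 percentage points. A gene group in which about the same shares passed as among all tested genes is not set apart by its count.

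The make-up of the messenger RNA shifted toward acute-phase products. The 27 acute-phase genes held 2.27% and 2.85% of the summed FPKM in H2O-treated livers and 18.1% and 18.3% in injured livers. The 13 protein-coding genes of the mitochondrial genome held 23.1% and 18.8% before and 11.6% and 11.1% after injury. These shares did not overlap between the groups, although 2 libraries against 2 cannot give an exact permutation p below 0.333. Apolipoproteins and lipoprotein assembly factors went from 5.96 ± 0.331% to 2.96 ± 0.273% (SD, n = 2) and conjugating enzymes from 1.68 ± 0.0277% to 0.918 ± 0.0447% (SD, n = 2). Cytochrome P450 genes went from 1.59 ± 0.00261% to 1.24 ± 0.0536% (SD, n = 2) and cytosolic ribosomal proteins from 1.27 ± 0.0565% to 1.18 ± 0.0835% (SD, n = 2). Albumin, the most abundant plasma protein, held 5.92% and 5.75% before and 5.25% and 5.14% after injury. The major urinary proteins, pheromone carriers with near-identical copies, went from 5.06 ± 0.481% to 7.43 ± 0.526% (SD, n = 2). The 10 most abundant genes together held 34.6% and 30.8% in H2O-treated livers and 28.2% and 28.5% after injury, with mt-Co1 in first place before and Alb after. The 20 largest rises and 20 largest falls include acute-phase, chemokine and bile acid genes described below. Others are the signalling adaptor Tifa (6.31 ± 0.31), the steroid transporter Slc10a6 (5.60 ± 0.14) and the serpin Serpina3f (5.96 ± 0.30) among the rises, and the adrenergic receptor Adra1b (-4.76 ± 0.19), the coenzyme Q kinase Coq8a (-4.58 ± 0.18), the kinase Mapk15 (-4.66 ± 0.29) and the steroid dehydrogenase Hsd3b2 (-5.19 ± 0.20) among the falls. Values in parentheses after a gene, here and below, are log2 changes of FPKM + 1, injured minus H2O, with their SE (2 libraries per group). Each SE rests on the spread shared by all 8 libraries, so that a wide spread between KO libraries widens it too. Because 1 FPKM was added, changes of weakly expressed genes are understated.

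**Figure D1:**
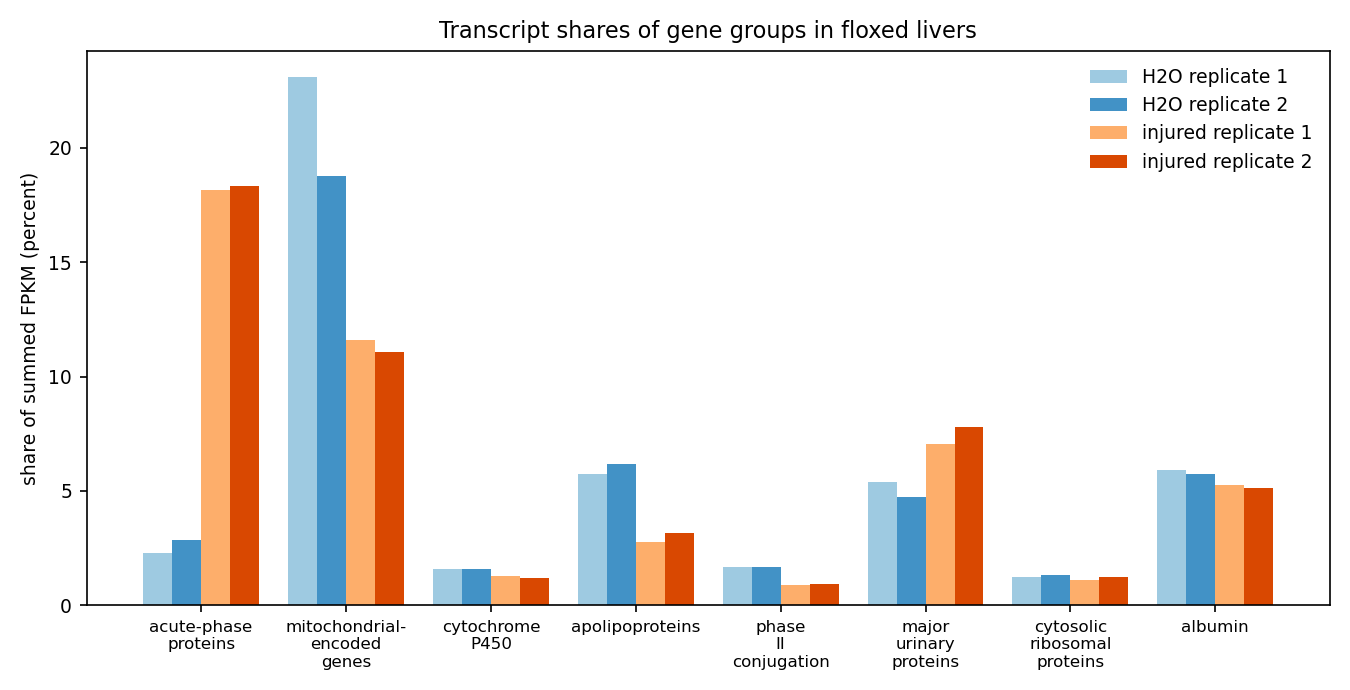
Share of summed FPKM (percent, linear axis from 0) held by 8 gene groups in each floxed library, with 1 bar per library (H2O replicates 1 and 2, injured replicates 1 and 2). The acute-phase bars rise from 2.27% and 2.85% to 18.1% and 18.3%, while the mitochondrial-encoded bars shrink.

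Of 27 acute-phase genes 25 rose and 0 fell, with a median log2 change of 3.49 against -0.30 for all members. Lcn2 (ENSMUSG00000026822), lipocalin 2, which starves bacteria of iron, had 2.08 and 1.53 FPKM in the H2O-treated and 2191 and 2187 FPKM in the injured livers. Both injured libraries lie far above both H2O libraries. The change was 9.62 ± 0.31 on the log2 scale (SE, limma adjusted p = 5.60e-06). The 3 fibrinogen chains, which form the clot, were already abundant in H2O-treated livers, and Fga (ENSMUSG00000028001) had 570.5 and 759 FPKM in the H2O-treated and 7438 and 7407 FPKM in the injured livers. Fga (3.49 ± 0.38), Fgg (2.98 ± 0.32) and Fgb (2.88 ± 0.29) rose. The injured libraries lie far above the H2O ones for each chain and the groups do not overlap. Other carriers and binders of the acute phase rose from a high level, among them haptoglobin Hp, which binds free haemoglobin (1944 ± 442 to 10640 ± 1163 FPKM (SD, n = 2), 2.46 ± 0.31), haemopexin Hpx, which binds haem (1818 ± 465 to 9659 ± 1230 FPKM (SD, n = 2), 2.43 ± 0.31), and the orosomucoid Orm1, a drug-binding plasma protein with close paralogs (830.1 ± 182 to 6175 ± 10.3 FPKM (SD, n = 2), 2.91 ± 0.30). Steap4, a metalloreductase that rose by 7.46 ± 0.27, had 14.1 and 14.9 FPKM in the H2O-treated and 3214 and 2296 FPKM in the injured livers. The LPS-binding protein Lbp (2.77 ± 0.17) and the pentraxins Apcs (3.24 ± 0.23) and Crp (2.48 ± 0.19), which tag microbes and debris, rose as well. Saa2 (9.13 ± 0.40) and Saa1 (8.26 ± 0.32) share nearly identical sequence, so their levels may be divided between them with error. The protease inhibitor A2m had 0.0402 and 0.0365 FPKM in the H2O-treated and 118 and 102 FPKM in the injured livers, a rise of 6.74 ± 0.54, and its relative Pzp, already abundant, went from 331 ± 19.4 to 1030 ± 18.9 FPKM (SD, n = 2) (1.64 ± 0.31). The metallothioneins Mt1 (8.33 ± 0.22) and Mt2 (5.92 ± 0.29), which bind zinc, and the zinc importer Slc39a14 (2.99 ± 0.39) rose, and the metal exporter Slc30a10 (-1.0 ± 0.17) fell. Of 21 metallothionein and zinc transporter genes 14 rose and 1 fell, and 3 of the 21 were members only through the injured livers. Hamp, the iron hormone hepcidin, did not pass, with 2401 and 3489 FPKM in the H2O-treated and 2497 and 2047 FPKM in the injured livers, and its groups overlap. Of 20 genes of iron handling 4 rose and 11 fell (6 and 10 after median centring), with the hepcidin inducer Hjv (-5.48 ± 0.34) and the iron exporter Slc40a1 (-3.12 ± 0.13) among those that fell.

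Some complement and clotting genes of the liver rose and others fell. Of 27 complement genes 7 rose and 8 fell (11 and 7 after median centring), and 12 did not pass, a share near that of all tested genes, of which 57.3% passed. The central component C3 (1.71 ± 0.30) and the receptor for C5a, C5ar1 (1.53 ± 0.16) rose, whereas the 3 chains of C1q, made by macrophages, fell: C1qa (-2.30 ± 0.34), C1qc (-2.30 ± 0.32) and C1qb (-1.49 ± 0.34), whose call ended without injured replicate 1. Of this group 4 rose without H2O-treated replicate 1 or either injured replicate and 5 fell without injured replicate 1. In bulk tissue fewer cells of a type and less RNA per cell cannot be told apart. Among 28 clotting and fibrinolysis genes 13 rose and 9 fell (13 and 4 after median centring). The endothelial anticoagulant receptors Procr (2.66 ± 0.26) and Thbd (1.56 ± 0.20) and the urokinase receptor Plaur (1.79 ± 0.24) rose, while protein C (Proc, -1.68 ± 0.17), factor VII (F7, -1.40 ± 0.18) and prekallikrein (Klkb1, -1.83 ± 0.20) fell. Procr, Thbd and Plaur were among 4 clotting and fibrinolysis genes that were members only through the injured livers. Another 2 were members only through the H2O-treated ones. Of this group 5 fell without H2O-treated replicate 1 or injured replicate 2 and 4 fell without injured replicate 1. Prothrombin (F2, 284 ± 4.34 to 344 ± 2.96 FPKM (SD, n = 2), 0.28 ± 0.25) did not pass. Of 26 other secreted proteins 3 rose and 9 fell (4 and 7 after median centring). Igfbp1, which binds insulin-like growth factor, had 32.3 and 47.9 FPKM in the H2O-treated and 702 and 486 FPKM in the injured livers, a rise of 3.86 ± 0.60, whereas Igf1 (-0.98 ± 0.15) and Igfals (-2.74 ± 0.25), which holds it in the circulation, fell, as did transthyretin Ttr (-1.32 ± 0.24) and retinol-binding protein Rbp4 (-1.38 ± 0.23). Alb (-0.28 ± 0.25) did not pass (limma adjusted p = 0.363), and after quantile normalisation it passed as higher.

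Genes of LPS sensing, NF-kB control, chemokines and cytokines rose more often than they fell. Of 17 genes of LPS sensing 12 rose and 2 fell. Cd14, the co-receptor that hands LPS to Toll-like receptor 4, had 1.03 and 0.739 FPKM in the H2O-treated and 83.1 and 97.7 FPKM in the injured livers, a rise of 5.60 ± 0.24. Tlr2, the receptor for bacterial lipopeptides (3.29 ± 0.17), the adaptor Myd88 (1.71 ± 0.13) and the inhibitory kinase Irak3 (2.66 ± 0.14) rose, and the flagellin receptor Tlr5 (-1.49 ± 0.14) fell. Tlr2 and Irak3 were among 3 LPS-sensing genes that were members only through the injured livers. Tlr5 was the 1 that was a member only through the H2O-treated ones. Tlr4 itself is no member, since it stayed under 1 FPKM in all 4 libraries. Of 20 NF-kB subunits and regulators 10 rose and 2 fell (15 and 0 after median centring), with the inhibitors Tnfaip3 (3.81 ± 0.31) and Nfkbia (1.59 ± 0.31) and the regulator Bcl3 (1.75 ± 0.27) among those that rose, while the subunit Nfkb1 (0.03 ± 0.13) did not pass. Of this group 0 fell without any 1 of the 4 libraries. Of 17 chemokine genes 10 rose and 3 fell. In this group 4 were members only through the injured livers and 1 only through the H2O-treated ones. Cxcl1, which draws neutrophils, had 4.49 and 3.75 FPKM in the H2O-treated and 362 and 330.5 FPKM in the injured livers, a rise of 6.08 ± 0.25. The others that rose were Cxcl2 (2.96 ± 0.43), which also draws neutrophils, Ccl2 (3.18 ± 0.22) and Ccl7 (3.0 ± 0.25), which draw monocytes, the T cell attractants Cxcl9 (5.65 ± 0.21) and Cxcl10 (2.28 ± 0.36), Ccl5 (3.61 ± 0.28), Ccl3 (2.81 ± 0.40), Ccl4 (2.32 ± 0.41) and Cxcl14 (0.79 ± 0.26), whose call ended without H2O-treated replicate 2 or injured replicate 2. Cxcl12, a constitutive chemokine of the liver, fell from 41.4 ± 5.85 to 10.9 ± 0.543 FPKM (SD, n = 2) (-1.83 ± 0.28), and Ccl27a (-2.16 ± 0.26) and Cxcl11 (-1.01 ± 0.15) fell with it. Of 12 cytokines that were members, 7 rose and 3 fell: the interleukin-1 antagonist Il1rn had 0.212 and 0.308 FPKM in the H2O-treated and 52.8 and 45.5 FPKM in the injured livers, a rise of 5.31 ± 0.15, and Il1b (2.19 ± 0.49), the alarmin Il33 (3.48 ± 0.15) and the neutrophil growth factor Csf3 (3.11 ± 0.14) rose as well. Il18 (-1.10 ± 0.28) fell, a call that ended without H2O-treated replicate 2 or injured replicate 1. Of this group 1 fell without H2O-treated replicate 2 or injured replicate 1. In this group 5 were members only through the injured livers and 1 only through the H2O-treated ones.

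Most STAT3-pathway and interferon-response genes rose. Of 19 genes of the STAT3 pathway 17 rose and 2 fell. The feedback inhibitor Socs3 had 4.02 and 3.79 FPKM in the H2O-treated and 119.5 and 119 FPKM in the injured livers, a rise of 4.62 ± 0.22, and Socs1 (3.35 ± 0.17), Stat3 (2.52 ± 0.14) and the kinase Pim3 (2.72 ± 0.27) rose with it, while the receptor of leukaemia inhibitory factor, Lifr (-1.68 ± 0.18), fell. Of this group 11 rose without H2O-treated replicate 2 or injured replicate 1 and 1 fell without H2O-treated replicate 1 or either injured replicate. Of 35 interferon-response genes 28 rose and 0 fell, with a median of 2.01. Isg15, a ubiquitin-like protein, had 26.5 and 55.1 FPKM in the H2O-treated and 579 and 859 FPKM in the injured livers, a rise of 4.17 ± 0.37. The guanylate-binding protein Gbp2 (6.44 ± 0.23) and the RNA-binding Ifit2 (4.50 ± 0.23) are further examples. Of the transcription factors that drive them Irf1 (0.41 ± 0.37) and Irf7 (0.55 ± 0.31) did not pass, although Irf7 passed as higher after median centring (0.83). Of 17 adhesion molecules 10 rose and 1 fell, and 4 of the 17 were members only through the injured livers. Icam1 (3.05 ± 0.21), which holds leukocytes on endothelium, was among those that rose. Of this group 5 rose without H2O-treated replicate 1 and 6 rose without H2O-treated replicate 2 or either injured replicate. Of 25 genes of MHC class I presentation 8 rose and 5 fell (14 and 3 after median centring): the peptide-loading factor Tapbpl (1.38 ± 0.16) rose, the liver class I gene H2-Q10 (-1.35 ± 0.23) fell and H2-K1 (-0.34 ± 0.18) did not pass. Of this group 3 fell without either H2O-treated replicate. Class II genes fell in 7 of 9 cases, such as H2-Eb1 (-1.72 ± 0.23) and H2-Aa (-1.36 ± 0.18). Among the 9, 2 were members only through the H2O-treated livers and 1 only through the injured ones.

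**Figure D2:**
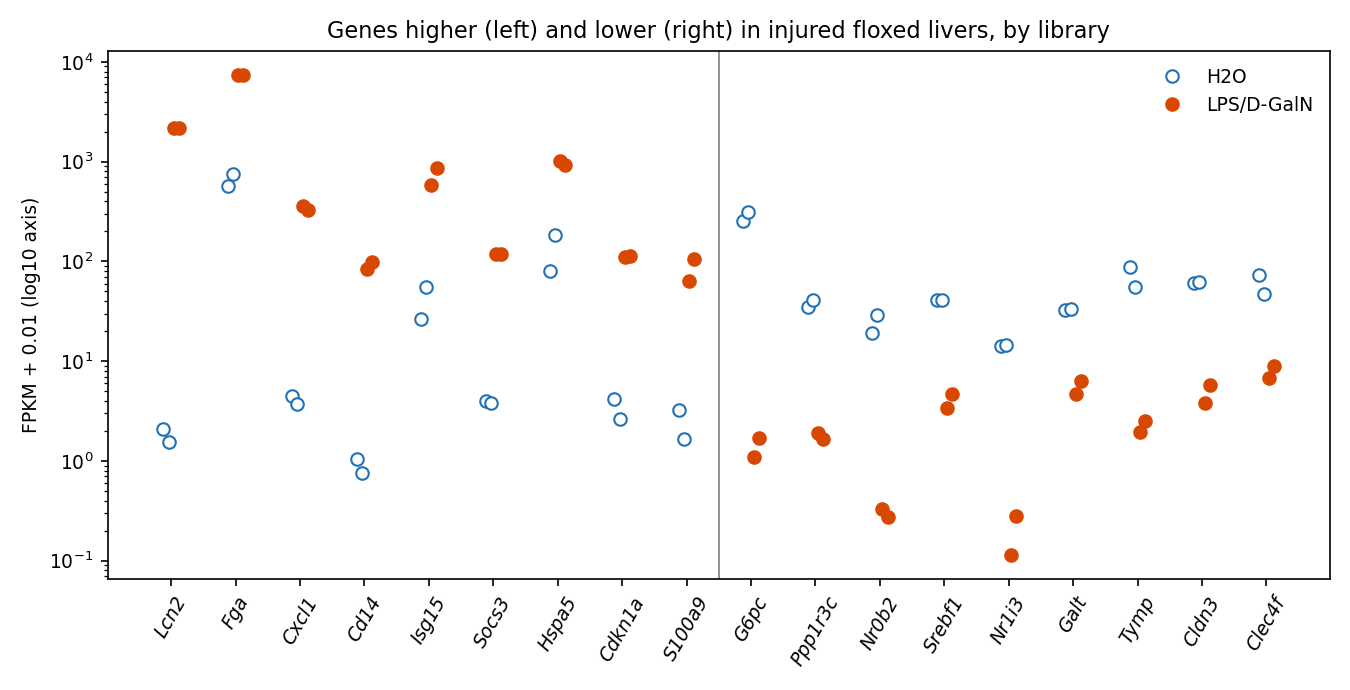
FPKM (log10 axis, with 0.01 FPKM added to every value for drawing) of 18 genes in the 4 floxed libraries, with open circles for the 2 H2O-treated and filled circles for the 2 injured livers. In each of the 18 genes the points of the groups do not overlap, the first 9 genes being higher and the last 9 lower after injury.

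The promoter windows of 5 genes are shown because each carries the motif of a pathway described here and the gene itself rose. They come from RefSeq (GRCm38.p6) and run from 250 bases before to 50 bases after the start, 5′ to 3′ on the gene's strand. Capitals mark the motif on either strand: kappa-B (GGG and TTTCC with 2 free bases between) in Cxcl1, the STAT palindrome (TTCC and GGAA with 1 free base between) in Steap4, 3 overlapping interferon-stimulated response elements (TTTC repeated after 2 free bases) in Isg15, and the endoplasmic reticulum (ER) stress element (CCAAT and CCACG with 9 free bases between) in the chaperone genes Hspa5 and Hsp90b1.
Cxcl1: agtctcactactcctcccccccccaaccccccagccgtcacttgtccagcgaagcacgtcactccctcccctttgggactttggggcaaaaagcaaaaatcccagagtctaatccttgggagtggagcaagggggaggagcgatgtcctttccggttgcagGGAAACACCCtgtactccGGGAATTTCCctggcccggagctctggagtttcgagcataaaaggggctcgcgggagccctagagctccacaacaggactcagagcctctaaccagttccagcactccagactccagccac
Steap4: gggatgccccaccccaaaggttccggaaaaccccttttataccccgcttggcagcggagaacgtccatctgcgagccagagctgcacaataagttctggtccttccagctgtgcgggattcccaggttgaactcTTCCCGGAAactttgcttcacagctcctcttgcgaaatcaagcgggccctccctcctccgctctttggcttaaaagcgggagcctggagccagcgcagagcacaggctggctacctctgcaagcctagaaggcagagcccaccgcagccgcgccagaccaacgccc
Isg15: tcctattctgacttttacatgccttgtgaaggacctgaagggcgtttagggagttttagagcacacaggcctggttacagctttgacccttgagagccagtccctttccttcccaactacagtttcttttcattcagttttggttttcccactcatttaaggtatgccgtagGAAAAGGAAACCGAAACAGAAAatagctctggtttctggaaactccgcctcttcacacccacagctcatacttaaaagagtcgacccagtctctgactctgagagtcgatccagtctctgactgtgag
Hspa5: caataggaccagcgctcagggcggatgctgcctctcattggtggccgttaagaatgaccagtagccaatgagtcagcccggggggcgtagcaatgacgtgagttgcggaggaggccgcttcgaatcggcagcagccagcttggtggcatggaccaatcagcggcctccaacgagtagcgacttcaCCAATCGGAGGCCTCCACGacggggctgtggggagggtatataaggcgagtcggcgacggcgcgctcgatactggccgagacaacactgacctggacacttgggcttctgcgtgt
Hsp90b1: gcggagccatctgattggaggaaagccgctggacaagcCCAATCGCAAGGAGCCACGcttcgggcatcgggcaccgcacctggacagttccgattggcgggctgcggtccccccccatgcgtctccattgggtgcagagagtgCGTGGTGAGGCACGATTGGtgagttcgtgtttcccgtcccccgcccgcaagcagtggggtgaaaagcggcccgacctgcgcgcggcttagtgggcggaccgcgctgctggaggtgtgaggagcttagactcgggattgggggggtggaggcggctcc

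The windows lie at chr5:90890995-90891294 (plus strand) for Cxcl1, chr5:7960222-7960521 (plus strand) for Steap4, chr4:156200769-156201068 (minus strand) for Isg15, chr2:34771840-34772139 (plus strand) for Hspa5 and chr10:86705395-86705694 (minus strand) for Hsp90b1. Counted from the start, the kappa-B matches in Cxcl1 lie at -89 to -80 and -71 to -62, the STAT match in Steap4 at -116 to -108, and the ER stress elements at -65 to -47 in Hspa5 and at -212 to -194 and -107 to -89 in Hsp90b1. Over all 32851 RefSeq windows of this length, 1.63% held the kappa-B letters, 1.15% the STAT palindrome, 3.44% the interferon-stimulated response element and 0.119% the ER stress element. Members with a window numbered 8726, and a gene with several starts counted as a match if any window held the letters. The interferon element was in 6.33% of the 1817 that rose, 2.75% of the 3525 that fell and 11.9% of the 235 that rose by at least 2 on the log2 scale. For kappa-B these shares were 2.86%, 1.73% and 6.38%, and for the ER stress element 0.605%, 0.0567% and 1.70%. The STAT palindrome was in 1.93% of those that rose, 0.96% of those that fell and 3.40% of those that rose by at least 2. Among members that did not pass, the shares were 1.92% for STAT, 3.93% for the interferon element, 1.95% for kappa-B and 0.148% for the ER stress element. These are descriptions without a test, and a match is not a binding site. Within the gene lists, 17 of 28 interferon-response members with a window held the interferon element, and 5 of 22 stress-response members (Hspa5, Hsp90b1, Creld2, Pdia6 and Calr) held the ER stress element. The STAT palindrome was in 2 of 22 acute-phase members (Fga and Steap4) and in 2 of 17 STAT3-pathway members, Cish, which rose, and Bcl6, which fell but did not pass after median centring. The kappa-B letters were in 3 of 11 chemokine members and in 6 of 16 NF-kB members, of which Nfkbia and Tnfaip3 rose and the other 4 did not pass.

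The unfolded protein response handles misfolded proteins in the ER and shares targets with the integrated stress response. Of 24 genes of these pathways 21 rose and 1 fell, with a median of 1.68. Hspa5, the main chaperone of the ER lumen, had 80.1 and 182 FPKM in the H2O-treated and 1014 and 936 FPKM in the injured livers, a rise of 3.0 ± 0.45. Hsp90b1 (1.93 ± 0.23), Dnajb9 (3.94 ± 0.38), Creld2 (3.84 ± 0.54), Hyou1 (2.70 ± 0.39), Herpud1 (2.58 ± 0.34) and the transcription factor Xbp1 (1.71 ± 0.37) rose with it, while the sensor Ern1 (-1.75 ± 0.16) fell. Of 20 aminoacyl-tRNA synthetases 13 rose and 0 fell, among them Wars (2.03 ± 0.17) and Nars (1.84 ± 0.19). Of 20 heat shock chaperones 3 rose and 6 fell (5 and 5 after median centring): Hspb8 (2.45 ± 0.53) and Bag3 (1.43 ± 0.22) rose, and Hspb1 (-1.73 ± 0.33) and Fkbp4 (-2.83 ± 0.29) fell. Of this group 3 fell without H2O-treated replicate 2 or injured replicate 1. Of 25 p53 targets and GADD45 genes 21 rose and 2 fell, and 4 of the 25 were members only through the injured livers. Gadd45a (3.76 ± 0.29), Gadd45g (3.45 ± 0.58), Btg2 (5.71 ± 0.27) and the ubiquitin ligase Mdm2 (1.69 ± 0.27), which degrades p53, rose, and the p53 gene itself (Trp53, -0.35 ± 0.15) did not pass. Of this group 1 fell without either H2O-treated replicate or injured replicate 1. Cdkn1a, which arrests the cell cycle, had 4.17 and 2.63 FPKM in the H2O-treated and 112 and 112 FPKM in the injured livers. Of 25 genes of death receptor signalling 15 rose and 4 fell. The TNF receptor Tnfrsf1a had 18.6 and 18.5 FPKM in the H2O-treated and 97.5 and 90.3 FPKM in the injured livers, a rise of 2.28 ± 0.19, and Tnfrsf1b (1.93 ± 0.19), Tnfrsf10b (2.25 ± 0.14), Fas (1.65 ± 0.18) and the necroptosis effector Mlkl (2.05 ± 0.14) rose as well. The adaptor Tradd (-1.02 ± 0.17) and the caspase Casp9 (-0.96 ± 0.13) fell. Of this group 9 rose without H2O-treated replicate 1 or injured replicate 1 and 2 fell without H2O-treated replicate 2 or injured replicate 1. Of 12 BCL-2 family genes 4 rose and 5 fell (6 and 2 after median centring), with the survival gene Bcl2l1 (2.41 ± 0.32) among those that rose and the pro-death Bik (-2.05 ± 0.18) and Bok (-1.38 ± 0.21) among those that fell. Of this group 2 rose without either H2O-treated replicate, 1 rose without injured replicate 1 and 2 fell without H2O-treated replicate 2 or injured replicate 1.

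Antioxidant and detoxifying genes fell more often than they rose, where 38.8% of all tested genes fell and 18.5% rose. Of 27 genes of the NRF2 response 3 rose and 16 fell. The exceptions that rose were Hmox1, which degrades haem (1.99 ± 0.24), the mitochondrial superoxide dismutase Sod2 (1.75 ± 0.19) and Txnrd1 (1.12 ± 0.18). Gclc, the rate-limiting enzyme of glutathione synthesis, had 102 and 139 FPKM in the H2O-treated and 26.6 and 16.0 FPKM in the injured livers, a change of -2.47 ± 0.28, and catalase Cat (-1.70 ± 0.20), Osgin1 (-2.96 ± 0.53) and the glutathione transferase Gsta1 (-3.91 ± 0.26) fell as well. Conjugating enzymes fell in 32 of 42 cases and rose in 2, among them Gstm1 (2063 ± 298 to 359 ± 36.7 FPKM (SD, n = 2), -2.52 ± 0.24) and Gsta2 (-3.83 ± 0.23). The rises were Nnmt, which methylates nicotinamide, with 31.5 and 26.9 FPKM in the H2O-treated and 311 and 366 FPKM in the injured livers, a rise of 3.49 ± 0.25, and the glucuronosyltransferase Ugt2b38 (2.96 ± 0.31). Of 51 cytochrome P450 genes and their reductase 8 rose and 32 fell. Cyp26a1, which degrades retinoic acid (-4.32 ± 0.97), Cyp2d13 (-4.23 ± 0.31) and Cyp4a14 (-3.76 ± 0.56) fell, Cyp2c70 (1.64 ± 0.31) was among those that rose, and the abundant Cyp3a11 (-0.30 ± 0.21) and Cyp2e1 (0.60 ± 0.29) did not pass. Cyp2e1 passed as higher after median centring (0.88). Of this group 5 rose without injured replicate 1. Many P450, glutathione transferase and glucuronosyltransferase genes have close paralogs, so reads may be divided between copies with error. Of 15 genes of galactose and UDP-sugar metabolism, through which D-GalN enters hepatocytes, 6 rose and 6 fell (7 and 4 after median centring): Galt (-2.41 ± 0.20) fell, whereas Gfpt1 (2.05 ± 0.19) and Uap1 (1.79 ± 0.18), which make UDP-N-acetylglucosamine, rose. Galt had 32.9 and 33.6 FPKM in the H2O-treated and 4.71 and 6.30 FPKM in the injured livers. Of 22 genes of the pyrimidine pathway, which supplies uridine nucleotides, 6 rose and 11 fell (9 and 5 after median centring): the salvage kinase Uck2 (2.36 ± 0.19), Upp1 (2.53 ± 0.13) and Ctps (1.59 ± 0.23) rose, and thymidine phosphorylase Tymp, with 88.9 and 55.1 FPKM in the H2O-treated and 1.96 and 2.48 FPKM in the injured livers, changed by -4.47 ± 0.34. Of this group 6 fell without either H2O-treated replicate and 5 fell without injured replicate 1.

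Most genes of lipid synthesis fell. Of 23 genes of fatty acid and triglyceride synthesis 1 rose and 18 fell. Srebf1, the transcription factor that drives this pathway under insulin, had 40.7 and 40.6 FPKM in the H2O-treated and 3.39 and 4.71 FPKM in the injured livers, a change of -3.06 ± 0.22. The glucose-sensing factor Mlxipl (-2.79 ± 0.27), the acyltransferase Gpam (-3.13 ± 0.16) and Acly (-2.51 ± 0.22) fell as well, while the desaturase Scd1 (865 ± 244 to 1055 ± 228 FPKM (SD, n = 2), 0.30 ± 0.29) did not pass and the phosphatase Lpin1 (1.87 ± 0.37) rose. Of 27 cholesterol synthesis genes 1 rose and 21 fell (3 and 17 after median centring), such as Sc5d (-2.29 ± 0.16) and Fdps (-2.18 ± 0.24), and Idi1 (0.87 ± 0.27) was the member that rose, a call that ended without H2O-treated replicate 1 or either injured replicate. Hmgcs1 had 96.8 and 112 FPKM in the H2O-treated and 14.6 and 18.1 FPKM in the injured livers (-2.60 ± 0.19). Sqle (0.53 ± 0.21) of the same pathway did not pass, although it passed as higher after median centring (0.81). Of 29 genes of fatty acid oxidation 2 rose and 15 fell (4 and 12 after median centring), with Ppara, their nuclear receptor (-1.14 ± 0.17) and the thiolase Acaa1b (-3.48 ± 0.23) lower and the gatekeeper Cpt1a (0.89 ± 0.15) higher. Of 28 apolipoprotein and lipoprotein genes 7 rose and 15 fell: Apoc2, the activator of lipoprotein lipase, went from 31.7 ± 4.86 to 1.32 ± 0.793 FPKM (SD, n = 2) (-3.85 ± 0.26), Apoa2 from 8101 ± 186 to 2368 ± 327 FPKM (SD, n = 2) (-1.78 ± 0.22) and Angptl8 from 94.8 ± 1.21 to 1.20 ± 0.523 FPKM (SD, n = 2) (-5.47 ± 0.29), while the cholesterol exporter Abca1 (2.21 ± 0.27) rose. Of this group 4 rose without injured replicate 1. Of 16 lipid droplet and lipolysis genes 3 rose and 8 fell, with the lipase inhibitor G0s2 (-5.46 ± 0.55), Plin5 (-2.16 ± 0.24) and monoglyceride lipase Mgll (-2.22 ± 0.23) among the falls. Of this group 0 rose without H2O-treated replicate 2 or injured replicate 1.

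Sugar, bile acid and amino acid metabolism also held more falls than rises, where 38.8% of all tested genes fell and 18.5% rose. Of 20 genes of glucose handling 5 rose and 12 fell. G6pc, which releases glucose from the liver, had 255 and 314 FPKM in the H2O-treated and 1.08 and 1.67 FPKM in the injured livers, the largest fall of any member at -6.91 ± 0.67. The glycogen-targeting subunits Ppp1r3c (-3.83 ± 0.39) and Ppp1r3b (-3.52 ± 0.33) and the glucose transporter Slc2a2 (-2.24 ± 0.20) fell. Fbp1 (1.89 ± 0.31) and Pcx (1.40 ± 0.27) of the same pathway rose, and Pck1 (404 ± 211 to 503 ± 56.0 FPKM (SD, n = 2), 0.42 ± 0.63) did not pass. Of this group 2 rose without H2O-treated replicate 1 or injured replicate 2 and 3 rose without injured replicate 1. Of 27 genes of bile acid metabolism 3 rose and 19 fell. The nuclear receptor partner Nr0b2 (SHP), which represses bile acid synthesis, had 19.0 and 28.8 FPKM in the H2O-treated and 0.317 and 0.262 FPKM in the injured livers, a change of -4.24 ± 0.47, beside those of Cyp8b1 (-4.99 ± 0.27) and Cyp7a1 (-4.74 ± 0.23), the enzymes of synthesis. Nr0b2 and Cyp7a1 were among 4 bile acid genes that were members only through the H2O-treated livers. The exporters Abcc2 (-2.74 ± 0.25) and Abcb11 (-1.70 ± 0.23) and the bile acid receptor Nr1h4 (-1.66 ± 0.19) fell as well. Of 38 genes of amino acid breakdown 7 rose and 28 fell. Hal (-2.99 ± 0.25), Uroc1 (-2.70 ± 0.23) and Amdhd1 (-2.82 ± 0.22), 3 successive enzymes of histidine breakdown, fell together with the proline enzyme Prodh2 (-3.29 ± 0.21), while the tryptophan dioxygenase Tdo2 (1.82 ± 0.32) rose. Of this group 4 rose without H2O-treated replicate 1 or injured replicate 2. Of 17 genes of the urea cycle and glutamine metabolism 3 rose and 7 fell (4 and 6 after median centring), near the shares of all tested genes. Ass1 (-1.39 ± 0.26) and Asl (-1.51 ± 0.28) fell, Cps1 (-0.05 ± 0.30) and Arg1 (-0.30 ± 0.27) did not pass, and the glutaminase Gls2 (-2.51 ± 0.22) fell. Glul had 107 and 106 FPKM in the H2O-treated and 358 and 237 FPKM in the injured livers, a rise of 1.44 ± 0.27, and the glutamine transporter Slc38a2 (2.19 ± 0.23) rose with it.

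Glul marks hepatocytes around the central vein, and most other pericentral genes fell. Of 20 pericentral genes 2 rose and 15 fell (4 and 13 after median centring), among them the Wnt targets Rnf43 (-1.76 ± 0.20) and Axin2 (-1.37 ± 0.14). Both Wnt targets were among 4 pericentral genes that were members only through the H2O-treated livers. Of 18 periportal genes 2 rose and 11 fell (3 and 8 after median centring), such as Etnppl (-2.68 ± 0.23). Of this group 1 rose without H2O-treated replicate 1 or injured replicate 1. The medians were -1.14 and -0.83, and their difference was not tested.

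**Figure D3:**
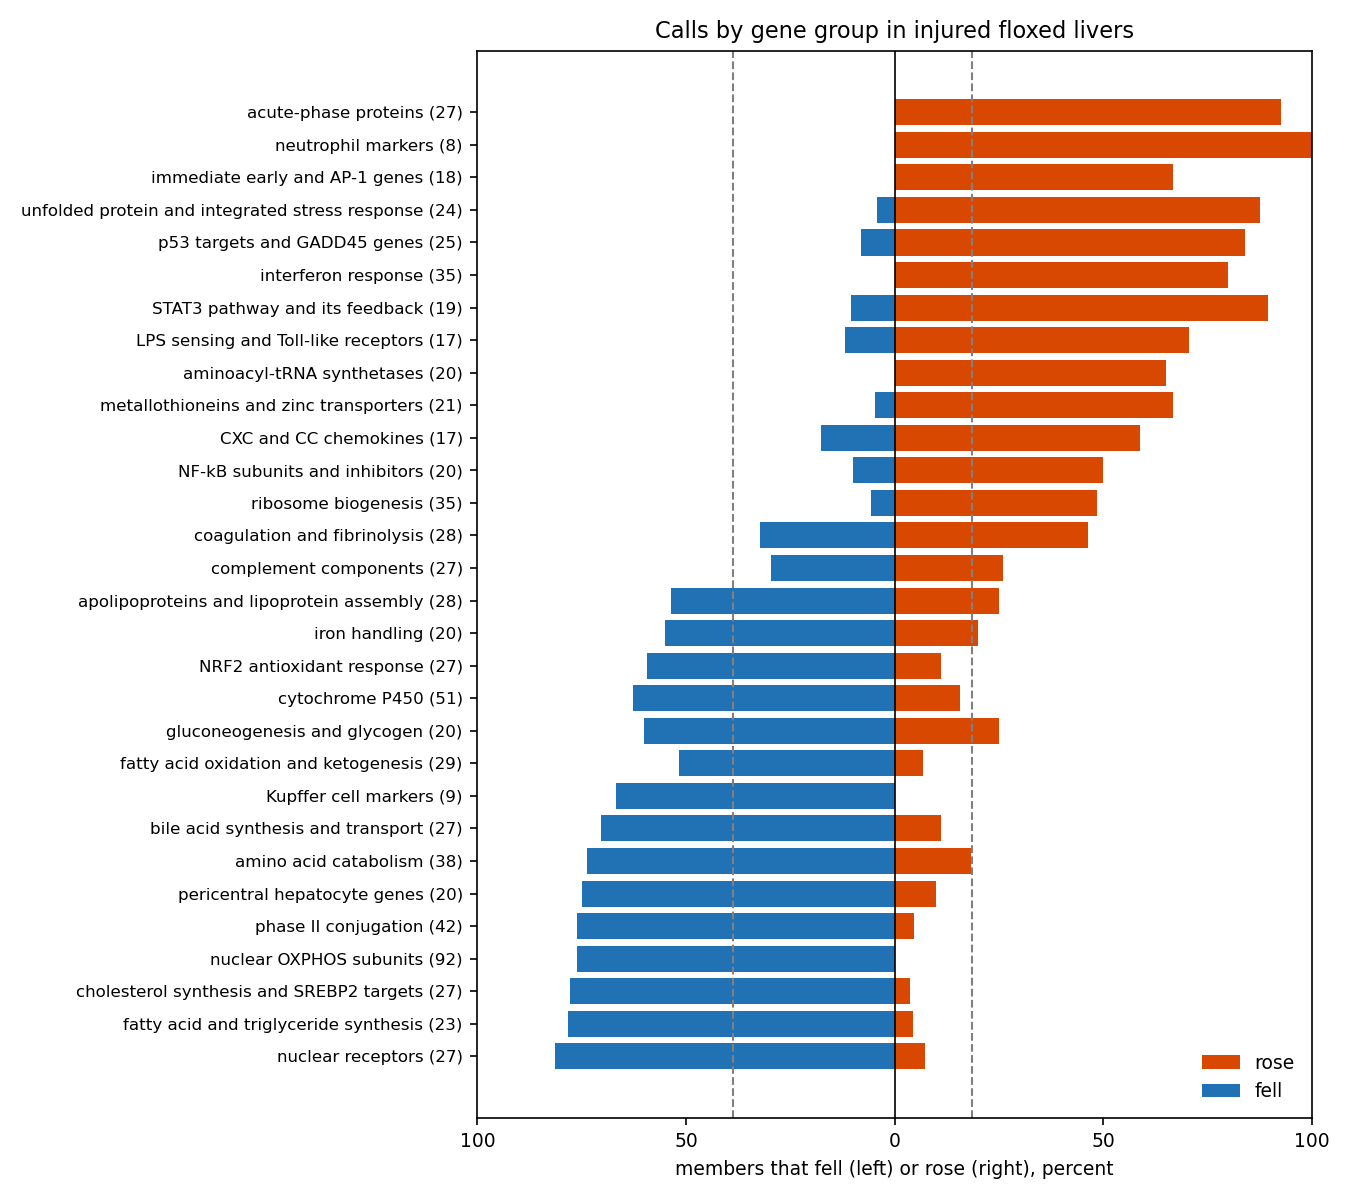
Number of members of 30 gene groups that rose (bars to the right) or fell (bars to the left) at an adjusted p under 0.05, as a percentage of the members of that group, with the number of members in brackets. Acute-phase, neutrophil, stress and interferon groups lie almost wholly to the right, and nuclear receptor, lipid synthesis and conjugation groups to the left; the grey lines mark 18.5% and 38.8%, the shares of all tested genes.

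Transcription factors of the liver also changed. Of 27 nuclear receptors 2 rose and 22 fell, with a median of -1.24. The H2O-treated livers alone made 6 of them members, including Nr1i3. Nr1i3 (CAR), the xenobiotic sensor, had 14.2 and 14.5 FPKM in the H2O-treated and 0.104 and 0.269 FPKM in the injured livers, a change of -3.70 ± 0.19. Ppard (-2.83 ± 0.16) and Nr1i2 (-1.60 ± 0.23) fell, and the receptors that rose were Nr1d2 (2.25 ± 0.34) and Nr1d1 (0.91 ± 0.17) of the clock. Of 20 clock genes 6 rose and 9 fell: the activators Arntl (-2.13 ± 0.14) and Npas2 (-2.08 ± 0.12) and the repressor Cry1 (-1.55 ± 0.21) fell, and Per1 (1.99 ± 0.23) rose. Arntl had 5.26 and 5.04 FPKM in the H2O-treated and 0.368 and 0.440 FPKM in the injured livers. Arntl and Npas2 were among 3 clock genes that were members only through the H2O-treated livers, and 1 was a member only through the injured ones. No label gives the time of day at collection, and its part in the clock genes was not tested. Of 21 hepatocyte lineage factors 6 rose and 9 fell: Foxa1 (-1.86 ± 0.26) and Onecut1 (-1.56 ± 0.24) fell, Cebpd (2.56 ± 0.31) and Cebpb (1.55 ± 0.21), the acute-phase C/EBP factors, rose, and Hnf4a had 90.7 and 99.6 FPKM in the H2O-treated and 254 and 194 FPKM in the injured livers and did not pass (1.22 ± 0.50, limma adjusted p = 0.0708). Hnf4a passed as higher after median centring (1.49). Of 18 immediate early genes 12 rose and 0 fell, such as Ier3 (4.75 ± 0.33), Junb (3.21 ± 0.27) and Egr1 (2.93 ± 0.35), while Fos (0.34 ± 0.34) did not pass. Ier3 and Fos were among 3 immediate early genes that were members only through the injured livers. Of 29 regulators of mRNA decay 9 rose and 3 fell (15 and 2 after median centring), with the cytokine-mRNA nuclease Zc3h12a (2.47 ± 0.20) and Tiparp (3.43 ± 0.15) among the rises.

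Nuclear-encoded subunits of oxidative phosphorylation fell in 70 of 92 cases and rose in 0 (median -0.89; 52 fell and 3 rose after median centring). Of this group 44 fell without injured replicate 1. Of the 13 mitochondrial-encoded genes 9 fell, such as mt-Co3 (-2.60 ± 0.37), with mt-Nd1 at -0.62 ± 0.30, which did not pass. Of this group 4 fell without either H2O-treated replicate, 3 fell without injured replicate 1 and 1 fell without injured replicate 2. Of 33 mitochondrial carriers 2 rose and 15 fell (6 and 10 after median centring), with the dicarboxylate carrier Slc25a10 (-2.73 ± 0.17) lower and the NAD carrier Slc25a51 (1.90 ± 0.34) higher. Of this group 1 rose without either H2O-treated replicate or injured replicate 1. Of 35 ribosome biogenesis factors 17 rose and 2 fell, among them Nop58 (1.50 ± 0.22). Of this group 10 rose without injured replicate 1 and 1 fell without any 1 of the 4 libraries. Cytosolic ribosomal protein genes, as a group, depended on the scaling: of 79 5 rose and 18 fell (7 and 11 after median centring), and their median of -0.27 became 0.00361 after median centring. Of this group 1 rose without H2O-treated replicate 1 or injured replicate 1, 2 rose without H2O-treated replicate 2 or injured replicate 2, 8 fell without either H2O-treated replicate and 5 fell without injured replicate 1.

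Junction genes changed in both directions. Of 18 junction genes 6 rose and 11 fell, where 18.5% of all tested genes rose and 38.8% fell. Cldn3, a sealing claudin of bile canaliculi, had 60.6 and 62.1 FPKM in the H2O-treated and 3.79 and 5.79 FPKM in the injured livers, a change of -3.45 ± 0.31, and Tjp3 (-3.81 ± 0.14), Cgn (-3.44 ± 0.24), Cldn1 (-3.18 ± 0.18) and the main gap junction protein Gjb1 (-1.82 ± 0.20) fell as well, while Cldn14 (3.44 ± 0.16), the other hepatocyte connexin Gjb2 (2.03 ± 0.36) and the pore-forming Cldn2 (1.55 ± 0.20) rose. All 4 aquaporins that were members fell, with Aqp8 at -4.87 ± 0.22. Of 28 cytoskeleton and keratin genes 5 rose and 6 fell (6 and 2 after median centring). The tubulin genes Tubb2a (-3.27 ± 0.35) and Tuba4a (-2.51 ± 0.29) fell, and Actg1 (2.02 ± 0.45) and Tubb6 (1.60 ± 0.15) rose. Of this group 3 rose without injured replicate 2 and 2 fell without H2O-treated replicate 2 or injured replicate 1. Of 16 growth signals of regenerating liver 4 rose and 7 fell (6 and 6 after median centring). The activin antagonist Fst (2.54 ± 0.38) and the activin subunit Inhbb (2.49 ± 0.24) rose, and the subunit Inhba (-2.85 ± 0.21) and the receptor Erbb3 (-2.0 ± 0.48) fell. Of 20 genes of the growth hormone and IGF axis 6 rose and 9 fell (7 and 6 after median centring). The growth hormone receptor Ghr (-1.18 ± 0.15) and Stat5b (-1.57 ± 0.22) fell, and the insulin receptor substrate Irs2 (2.11 ± 0.43) rose. Of 15 YAP targets and matricellular genes 7 rose and 5 fell (8 and 3 after median centring): Tead1 (1.96 ± 0.35) and Tgm2 (2.51 ± 0.22) rose, and Ccn1 (-1.03 ± 0.37) fell. Settings that ended the Ccn1 call included median centring, quantile normalisation and the replicate number as a block. Of this group 3 fell without H2O-treated replicate 2 or injured replicate 1 and 2 fell without injured replicate 2.

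Markers of the liver cell types were read from short lists. Of 7 hepatocyte markers 3 fell (Ttr, Apoa1 and Serpina1c, the last pair not without injured replicate 1 nor without 1 of the H2O-treated replicates) and 0 rose, while 2 rose and 3 fell after median centring. Alb, the defining transcript of liver tissue, had 26030 and 24900 FPKM in the H2O-treated and 20860 and 20940 FPKM in the injured livers. Kupffer cell markers fell in 6 of 9 cases, and 2 were members only through the H2O-treated livers. Clec4f had 73.8 and 46.8 FPKM in the H2O-treated and 6.80 and 8.89 FPKM in the injured livers, and the groups do not overlap, while Marco (10.4 ± 4.15 to 20.1 ± 9.27 FPKM (SD, n = 2), 0.87 ± 0.45) and Adgre1 (0.06 ± 0.24) did not pass. Of the 10 neutrophil markers listed 8 were members and 8 rose, 5 of them members only through the injured livers. S100a9, a calprotectin subunit, had 3.24 and 1.64 FPKM in the H2O-treated and 63.3 and 107 FPKM in the injured livers, a rise of 4.64 ± 0.31, and the granule gene Ngp (3.33 ± 0.24) rose with it. Of 8 monocyte and macrophage markers 4 rose and 3 fell (4 and 1 after median centring), with 3 members only through the injured livers. Cd14 and the chitinase-like Chil3 (2.96 ± 0.20) rose, and the growth factor receptor Csf1r (-2.08 ± 0.30) fell. Of this group 1 fell without H2O-treated replicate 2 or injured replicate 1. Of 9 sinusoidal endothelial markers 4 fell, with Clec4g at -2.79 ± 0.28 and Stab2 at -1.27 ± 0.27, and Lyve1, which had 1.01 and 1.52 FPKM in the H2O-treated and 9.50 and 13.2 FPKM in the injured livers, rose. Of 7 B cell markers 5 were members and 5 fell, but 3 of these, Cd79a (-1.21 ± 0.28) among them, were members only through the H2O-treated livers. Gzma (0.68 ± 0.14), the T and NK cell marker above the filter, and the cholangiocyte marker Epcam (1.01 ± 0.22) were members only through the injured livers. The cholangiocyte markers Spp1 (1.02 ± 0.37) and Sox9 (0.79 ± 0.20) rose, but both calls ended without H2O-treated or injured replicate 1, and that of Spp1 also with the replicate number as a block, with only the 4 floxed libraries and with mitochondrial and haemoglobin genes left out of the scaling. Of the stellate cell and fibroblast markers Des (-1.17 ± 0.14) and Pdgfrb (-1.03 ± 0.17) fell and 6 did not pass, but Des and Pdgfrb were members only through the H2O-treated livers. The haemoglobin gene Hbb-bs, a measure of blood in the tissue, had 189 and 148 FPKM in the H2O-treated and 40.2 and 37.9 FPKM in the injured livers (-2.07 ± 0.72). This change passed, also with only the 4 floxed libraries, but not after median centring or without any 1 of the 4 libraries. Its SE draws on all 8 libraries, and the injured KO libraries lay far apart, at 15830 and 2499 FPKM. Lyz2, the locus of the Cre and a macrophage and neutrophil gene, had 33.7 and 72.4 FPKM in the H2O-treated and 15.9 and 24.5 FPKM in the injured livers (-1.28 ± 0.41), a call that ended after median centring and without H2O-treated replicate 2 or injured replicate 1. The neutrophil rise and the Kupffer cell fall stand beside the changes in cytokines, complement C1q and class II genes above, and their part in those changes was not tested.

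**Figure D4:**
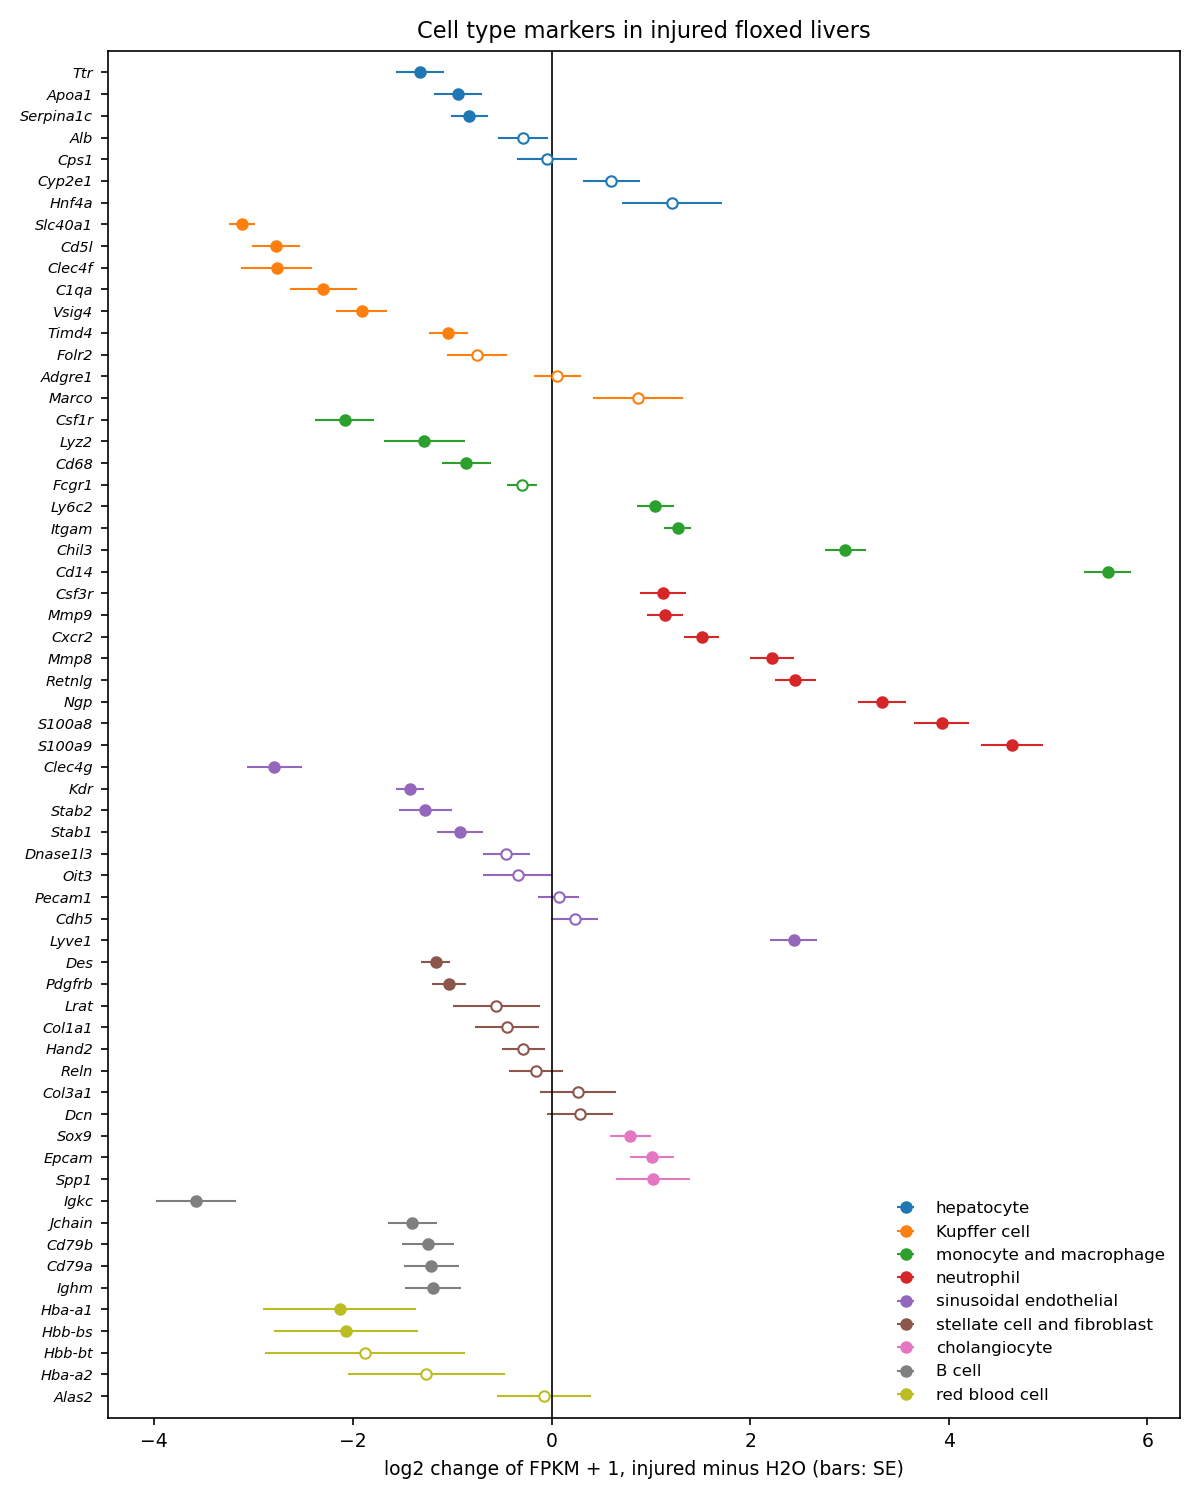
Log2 change (injured minus H2O, on FPKM + 1; points) with SE (bars) for marker genes of 9 cell types that were members, coloured by cell type; filled points passed at an adjusted p under 0.05 and open points did not. Neutrophil markers lie to the right of 0, and most Kupffer cell and all B cell markers to the left.

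Features of the genes that did not enter the rule were compared as a description. Of 802 long noncoding RNA members 80 rose and 524 fell (102 and 425 after median centring), with a median of -0.88, against 2224 and 4034 of 10335 protein-coding members (3215 and 2896) with a median of -0.23. The noncoding members had a median of 2.43 FPKM in H2O-treated livers and the protein-coding ones 5.13. The protein-coding members were also sorted by genomic span into 5 classes of equal size. The shortest class (up to 7.83 kb) had a median of -0.47 and 47.3% of it fell. The class below the longest (up to 59.7 kb) had -0.09 and 33.1%, and the longest -0.17 and 36.1%. By exon length the shortest class lay at -0.47 and the longest at -0.14. The shortest genes were also the more abundant, with medians of 8.14 FPKM in H2O-treated livers for the shortest span and 3.33 FPKM for the longest, and the part of abundance in the difference was not tested.

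**Figure D5:**
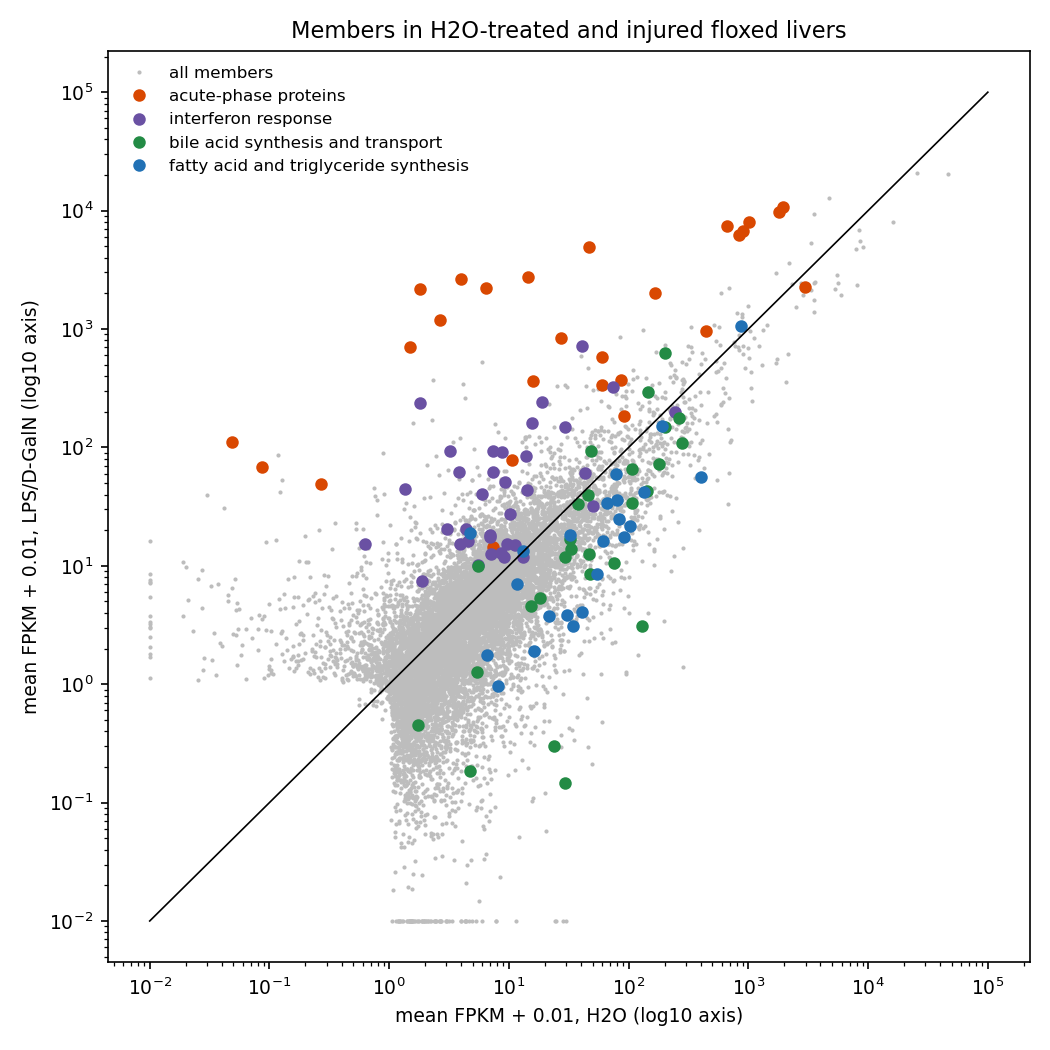
Mean FPKM of each of the 12438 members in injured (vertical) against H2O-treated (horizontal) floxed livers, both on log10 axes with 0.01 FPKM added for drawing; grey points are all members, and acute-phase, interferon-response, bile acid and fatty acid synthesis genes are coloured. Most acute-phase genes (25 of 27 rose) lie above the diagonal line of equality and bile acid and lipid synthesis genes mostly below it.

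Whether this response is particular to livers with intact Glul was asked by the genotype by injury interaction, which compares the change in KO with the change in floxed livers. It passed for 4375 of the 12438 members, 2332 with a higher and 2043 with a lower change in KO livers, where 36.0% of all tested genes passed, 20.9% higher and 15.1% lower. Of the 7511 members that changed in floxed livers 2885 (38.4%) passed it. Without H2O-treated floxed replicate 1 or 2 the interaction passed for 2843 or 2880 members, and without injured floxed replicate 1 for 2598. Quantile normalisation gave 1962 higher and 2595 lower. The injury change was more positive in floxed than in KO livers for 14 of 27 acute-phase genes and more negative for 1. Steap4 was among those 14, with an interaction (KO change minus floxed change) of -2.16 ± 0.39. Of the ER and integrated stress genes 11 of 24 genes had a more positive and 2 a more negative change in floxed livers. The opposite held for 13 of 17 chemokine genes, 21 of 35 interferon-response genes, 8 of 8 neutrophil markers and 9 of 9 Kupffer cell markers, whose change was more negative in floxed livers (8 Kupffer cell markers after median centring or without mitochondrial and haemoglobin genes in the scaling). The Kupffer cell markers named above (Clec4f, Marco, Adgre1, C1qa and Slc40a1) were already lower in KO than in floxed livers after H2O. Marco, for example, had 2.19 and 2.12 FPKM in H2O-treated KO and 13.3 and 7.43 FPKM in H2O-treated floxed livers. The part of this difference after H2O in the interaction was not tested. Cxcl10 had 1.98 and 6.06 FPKM in the H2O-treated and 21.5 and 21.1 FPKM in the injured livers of floxed mice, and 1.21 and 1.38 FPKM after H2O and 1073 and 847 FPKM after injury in KO livers, an interaction of 6.42 ± 0.51. The change was also more negative in floxed livers for 68 of 79 cytosolic ribosomal protein genes and 60 of 92 nuclear-encoded oxidative phosphorylation subunits. The haemoglobin gene Hbb-bs had 83.3 and 129 FPKM after H2O and 15830 and 2499 FPKM after injury in KO livers, so that the injured KO libraries stood apart in blood transcripts, and the part of this in the interaction was not tested.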

How the data were processed

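RNA-seq of whole mouse liver was deposited by the authors as FPKM per gene in 8 libraries, 2 in each of 4 groups. The submitters' processing notes name DESeq2 3.15 and the build GRCm39, without their roles; no source used here names the aligner or annotation. Fragments recovered from GENCODE exon lengths on GRCm38 were whole within 0.01 for about 98.1% to 98.2% of values in the floxed libraries. Tests covered the genes that reached 1 FPKM in 2 or more of the 8 libraries. They were run on log2(FPKM + 1) with limma 3.58.1 in R 4.3.3 (trended variance, 4 group means, 4 residual degrees of freedom), with Benjamini-Hochberg adjustment over all 13708 genes at 0.05. Counting noise is not modelled in FPKM, so low genes are measured less precisely. Tested on simulated data for injury against H2O in floxed livers (13464 genes, 200 changed), this recovered 54% of 2-fold and 95% of 4-fold changes, with 10 false calls among 159. The changed genes were drawn from those with more fragments, and all genes had the same dispersion. In the real data 57.3% of all tested genes passed, so the simulated rates need not hold there.

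Each of the 75 gene lists was written, and the members chosen, with earlier results of these data known. Named genes are Glul, Lyz2, the 20 largest rises and falls, in each list the first 4 members and the 4 largest rises and falls that passed, the 8 largest interactions in each direction and the top 10 genes of each floxed library. Genes named outside this rule, after their values were seen, are Adgre1, Apcs, Cat, Ccl3, Ccl4, Ccl7, Cish, Crp, Cxcl14, Gjb1, Herpud1, Hsp90b1, Hyou1, Marco, Nfkbia, Orm1, Pdia6, Plaur, Procr, Scd1, Slc2a2, Sqle, Thbd, Trp53 and Uroc1. Some genes that the rule names are not reported here. Alternatives were other pseudocounts, filters, scalings, fits and left-out libraries.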

Additional observations from a re-analysis of the deposited data

Results flagged for a closer look

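The genes below differed between genotypes in their response to injury by the interaction test of limma, and the values are the log2 change in KO livers minus that in floxed livers. The change was lower in KO livers for the pseudogene Gtpbp4-ps1 (-5.95), the galactosyltransferase gene B3galt1 (-4.60), Gm15502 (-4.23), Gm17662 (-3.80), E030018B13Rik (-3.70), the ubiquitin ligase gene Rnf103 (-3.59), Gm5828 (-3.40), the serpin Serpina3c (-3.37) and Glul (-1.86). It was higher in KO livers for Lyz2 (3.45), the matricellular gene Ccn1 (5.42), ENSMUSG00000118642 (5.46), Cxcl10 (6.42), the haemoglobin genes Hba-a2 (6.60), Hba-a1 (7.71), Hbb-bs (7.98) and Hbb-bt (8.11), and the small nuclear RNA 7SK (6.71). Serpina3c had 0.0638 and 0 FPKM in H2O-treated and 25.9 and 35.4 FPKM in injured floxed livers. Lyz2 already differed after H2O, with 5.27 and 9.92 FPKM in KO and 33.7 and 72.4 FPKM in floxed livers. After injury it had 39.9 and 32.65 FPKM in KO and 15.9 and 24.5 FPKM in floxed livers. The part of the lower level after H2O in its interaction was not tested.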

How the results depend on the processing

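Counts of changed members stayed within 1.5 times under the alternatives run, except where the filter alone left fewer genes to test. With a mean of at least 5 FPKM required, 3685 members changed, 1408 higher and 2277 lower, and the interaction passed for 2437. With no filter on low values the interaction passed for 2576. Leaving out 1 library at a time gave 5376 to 7724 changed members, 1632 to 2529 higher and 3732 to 5195 lower, and 2598 to 4418 with an interaction.

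With mitochondrial genes left out of the sum, the change in share was 17.8 percentage points for acute-phase proteins, -0.685 for P450, -4.50 for apolipoproteins, -1.17 for conjugating enzymes, -0.320 for ribosomal proteins and -1.74 for albumin. Quantile normalisation put Alb at 0.65 on the log2 scale (limma adjusted p = 0.0331), against -0.28 as deposited. The cause was not tested.

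The replicate numbers did not pair the floxed samples: deviations of same-numbered libraries correlated at -0.0424. With the replicate number as a block 7381 members changed, 2389 higher and 4992 lower, and 4073 had an interaction. With 2 libraries per group, differences of about 2-fold or less could be missed. The simulation recovered 54% of 2-fold changes and held no smaller ones. It also held a far smaller share of changed genes than the data, so this rate need not hold for them.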
